A study of Mus musculus with 9 samples.

Results

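Shared probe sets are the features of a microarray whose probes the platform annotation assigns to more than 1 gene. Their signal cannot be given to a single gene. All 1321 probe sets with more than 1 gene symbol were taken here, out of 34760 on the Affymetrix Mouse Gene 1.0 ST array. A further 21640 probe sets carried 1 symbol and 11799 were unnamed here. The cells were MC3T3-E1 subclone 4, a clonal line of mouse preosteoblasts from calvaria, so every array reports on 1 cell line. Cells of all groups were infected with lentivirus and sorted for green fluorescent protein, so the controls carried a virus and a hairpin too. The groups were Scr day 0 (scramble shRNA, proliferating cells), Scr day 9 (scramble shRNA, 9 days in osteogenic medium with ascorbic acid and beta-glycerophosphate) and shRunx2 day 9 (Runx2 shRNA, the same 9 days), with 3 biological replicates and 3 arrays each. Comparing shRunx2 with Scr at day 9 asks which transcripts differ between cells with the Runx2 and the scramble hairpin. With 1 hairpin of each kind, effects of lower Runx2 and of the hairpin itself cannot be told apart. Comparing Scr day 9 with Scr day 0 asks which transcripts change as the cells differentiate. Runx2 itself is not analysed here.

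The 1321 shared probe sets named 2028 genes. Among them 653 listed 2 symbols, 237 listed 3 and 100 listed at least 10, with a median of 3 and a maximum of 20. By their symbols, 612 were paralogs that share a name stem, 442 joined at most 1 named gene with placeholder symbols (such as Gm and LOC numbers), 204 joined differently named genes and 63 held a small RNA. The largest families were cytosolic ribosomal proteins with their pseudogenes (209 probe sets), olfactory, vomeronasal and taste receptors (151) and germ-cell multicopy genes (120). The lists also held 39 probe sets of zinc finger proteins, 22 of histones, 14 of interferon-inducible families and 8 of the major histocompatibility complex (MHC). None of the 1321 listed a gene of the osteoblast list, and 567 fell in no list. A shared probe set is named below by all symbols it lists, and its value belongs to the group and never to 1 of its genes.

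Gene families arise when a gene is copied side by side, and copies that stay alike continue to share sequence, so that a short probe hybridizes to several of their transcripts. Families of innate defense are prominent examples in the mouse. Interferons, secreted after infection, bind their receptors and activate STAT and IRF transcription factors, which bind interferon-stimulated response elements and switch on GTPases of the Gbp and Irg families, Oas enzymes, Trim proteins and MHC class I genes. Runx2 is the transcription factor that commits mesenchymal cells to the osteoblast lineage, and the core of its binding motif is TGTGGT.

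To show how alike such copies are upstream of the gene and which motifs they hold there, promoter windows of 4 gene pairs that share a rising probe set are printed from RefSeq (GRCm38.p6), from 250 bases before to 50 after the gene start and in the direction of transcription. Capitals mark GAAANNGAAA, the repeated core of the interferon-stimulated response element, and TGTGGT, each searched on both strands. The windows lie at chr11:48992197-48992496 for Tgtp1, chr11:49064163-49064462 for Tgtp2, chr5:120907476-120907775 for Oas1a, chr5:120887564-120887863 for Oas1g, chr15:77411031-77411330 for Apol9a, chr15:75048788-75049087 for Ly6c1 and chr15:75111922-75112221 for Ly6c2, all on the minus strand, and at chr15:77728822-77729121 for Apol9b on the plus strand.
Tgtp1: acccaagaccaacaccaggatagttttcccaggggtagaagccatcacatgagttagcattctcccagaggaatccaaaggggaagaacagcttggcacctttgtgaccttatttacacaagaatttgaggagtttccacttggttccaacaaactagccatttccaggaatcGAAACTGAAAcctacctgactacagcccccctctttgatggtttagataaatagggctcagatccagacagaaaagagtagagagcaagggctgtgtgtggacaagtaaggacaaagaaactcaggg
Tgtp2: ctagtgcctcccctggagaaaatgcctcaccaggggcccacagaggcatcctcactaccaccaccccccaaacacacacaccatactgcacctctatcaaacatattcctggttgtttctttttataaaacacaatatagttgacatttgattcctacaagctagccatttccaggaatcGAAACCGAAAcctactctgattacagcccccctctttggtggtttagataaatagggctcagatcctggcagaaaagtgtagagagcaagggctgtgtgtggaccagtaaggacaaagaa
Oas1a: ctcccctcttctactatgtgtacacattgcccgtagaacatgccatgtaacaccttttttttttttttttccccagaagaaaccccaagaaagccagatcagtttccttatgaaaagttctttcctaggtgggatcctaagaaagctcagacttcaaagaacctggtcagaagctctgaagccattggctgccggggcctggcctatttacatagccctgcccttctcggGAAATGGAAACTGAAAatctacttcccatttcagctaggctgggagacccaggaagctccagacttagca
Oas1g: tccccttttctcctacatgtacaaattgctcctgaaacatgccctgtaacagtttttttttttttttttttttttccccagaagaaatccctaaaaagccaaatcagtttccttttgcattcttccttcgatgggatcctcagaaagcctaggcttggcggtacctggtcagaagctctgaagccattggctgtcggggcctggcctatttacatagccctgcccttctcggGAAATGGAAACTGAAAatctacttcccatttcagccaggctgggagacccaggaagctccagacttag
Apol9a: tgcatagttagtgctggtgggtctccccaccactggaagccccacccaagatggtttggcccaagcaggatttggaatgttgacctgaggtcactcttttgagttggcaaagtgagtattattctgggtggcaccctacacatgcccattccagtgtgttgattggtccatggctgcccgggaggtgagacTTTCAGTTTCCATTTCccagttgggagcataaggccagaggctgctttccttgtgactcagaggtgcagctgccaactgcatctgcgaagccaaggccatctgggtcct
Apol9b: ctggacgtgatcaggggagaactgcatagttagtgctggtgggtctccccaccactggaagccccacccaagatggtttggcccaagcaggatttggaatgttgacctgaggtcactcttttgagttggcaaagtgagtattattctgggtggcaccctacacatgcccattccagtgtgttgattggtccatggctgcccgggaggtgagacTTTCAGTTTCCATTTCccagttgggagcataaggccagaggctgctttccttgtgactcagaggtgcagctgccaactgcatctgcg
Ly6c1: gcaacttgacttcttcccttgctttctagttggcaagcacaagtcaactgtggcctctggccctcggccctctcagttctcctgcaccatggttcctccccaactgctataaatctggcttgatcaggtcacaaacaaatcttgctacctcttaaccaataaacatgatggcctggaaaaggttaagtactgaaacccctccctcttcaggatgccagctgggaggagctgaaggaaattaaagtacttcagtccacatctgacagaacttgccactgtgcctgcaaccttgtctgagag
Ly6c2: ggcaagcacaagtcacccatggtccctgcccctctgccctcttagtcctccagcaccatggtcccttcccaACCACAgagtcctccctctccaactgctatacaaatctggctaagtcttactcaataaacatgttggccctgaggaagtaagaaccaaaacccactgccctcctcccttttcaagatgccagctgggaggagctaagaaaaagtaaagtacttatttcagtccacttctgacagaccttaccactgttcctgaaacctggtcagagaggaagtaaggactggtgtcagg

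Aligned end to end, the windows were identical at 85.3% of 306 positions for Oas1a and Oas1g, 86.3% of 322 for Apol9a and Apol9b, 67.7% of 331 for Tgtp1 and Tgtp2, and 62.9% of 340 for Ly6c1 and Ly6c2. The Apol9 windows shared an unbroken run of 278 identical bases shifted by 22, so the rest of that alignment is the shift at its ends. The longest identical runs of the other pairs were shifted by 2 (Oas1), 8 (Tgtp) and 25 (Ly6c) bases. Part of their differing positions can thus also come from shifted starts. Each Tgtp window held GAAANNGAAA once, and each Oas1 and Apol9 window held 2 overlapping matches, on the reverse strand in Apol9. Neither Ly6c window held GAAANNGAAA, and Ly6c2 held TGTGGT once, on the reverse strand. The 23 shared probe sets that rose by at least 1.5-fold in shRunx2 cells listed 41 symbols, 25 of which had a window. GAAANNGAAA occurred in 15 of these 25 genes (60.0%), in 7.11% of the 1420 genes with a window that any shared probe set listed, and in 3.99% of all 27025 genes with one. TGTGGT occurred in 6 of the 25 (24.0%), in 20.6% of the 1420 and in 18.9% of all. Paralogs share ancestry, so the 25 genes are not independent, and a match describes letters in a window, not a bound site.

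Before the comparisons, the arrays and the cell type were checked. Array medians ran from 8.416 to 8.51 on the log2 scale, and no pair of arrays within a group correlated below 0.9945. Arrays have no read depth, and 3 per group limits the precision. Of 6 osteoblast markers with a probe set of their own, Alpl, Ibsp and Sp7 rose from day 0 to day 9 and fell with shRunx2, while Col1a1, Col1a2 and Sparc did not pass in either comparison. Of 6 leukocyte markers (Ptprc, Cd68, Adgre1, Csf1r, Cd3e and Itgam), 0 passed in limma in either comparison, and their mean log2 level per array was 7.67 to 7.72 at Scr day 0, 7.67 to 7.70 at Scr day 9 and 7.67 to 7.70 in shRunx2 cells. In RNA from a whole culture, fewer cells of a type and less RNA per cell cannot be told apart.

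Rises of at least 1.5-fold in shRunx2 cells made up a larger share of the shared probe sets than of all probe sets. Each probe set was tested with limma over all 34760, and one is said to rise or fall at a Benjamini-Hochberg adjusted p under 0.05. The term called is kept for those that also changed by at least 1.5-fold. At day 9, 23 of the 1321 were called higher in shRunx2 than in Scr cells, which is 1.74% beside 0.397% of all probe sets and 0.384% of those with 1 symbol. None were called lower, beside 0.129% of all and 0.189% of those with 1 symbol, shares at which few of 1321 would be called. At an unadjusted p under 0.05 and 1.5-fold, 26 were higher and 2 lower. At an unadjusted p alone, 88 were higher and 84 lower, and 1272 of the 1321 did not pass at an adjusted one. Without the fold threshold 37 rose, which is 2.8% beside 1.28% of all, and 12 fell, which is 0.908% beside 1.7%. The median log2 change over the 1321 was 0.01, and over all probe sets 0.00. In each of the 23 called, all 3 shRunx2 arrays lay above all 3 Scr arrays of day 9. Of the 23, 12 were on the interferon-inducible list, 2 on the MHC list and 2 were Ly6c probe sets. The median log2 change was 0.90 for the interferon-inducible list and lay between -0.19 (heat shock proteins, 3 probe sets) and 0.15 (MHC) for every other list. The -0.19 is the value of 1 of 2 Snord14d/Snord14c/Hspa8 probe sets, which also list small RNAs. The own probe sets of Hspa8 changed by -0.04, -0.03 and 0.08.

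The interferon-inducible list held 14 shared probe sets, of which 12 rose, all by at least 1.5-fold, and 2 did not pass (median log2 change 0.90, beside 0.00 over all probe sets). Of the 85 probe sets with 1 symbol on the same list, 40 rose and 1 fell (median 0.34). Over all probe sets, 1.28% rose and 1.7% fell. The members that did not pass were Ifi211/Ifi204, DNA-binding proteins of the Pyhin family, with a log2 change of 0.37 ± 0.08 (SE; adjusted p = 0.054), and Gm38525/Trim30b, with one of 0.02 (adjusted p = 0.895) whose sign turned when arrays were rescaled.

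Among the GTPases, the pair Tgtp2/Tgtp1, T-cell specific GTPases of the Irg family that act on the vacuoles of intracellular parasites, rose most. On 1 of its 2 probe sets, the Scr day 9 arrays read 8.49, 8.45 and 8.45 and the shRunx2 arrays 9.73, 9.88 and 9.83 on the log2 scale, and on the other they read 7.44, 7.38 and 7.45 and then 8.83, 9.16 and 8.95. The groups lay far apart on both, with log2 changes of 1.35 ± 0.04 (2.55-fold, adjusted p = 7.35e-06) and 1.56 ± 0.08 (2.95-fold, adjusted p = 5.12e-05). Both shRunx2 levels were also above the day 0 arrays, which read 9.16, 9.17 and 9.12 on the first probe set.

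Irgm2/Igtp, which pairs a regulatory with an effector GTPase of the Irg family, read 10.33, 10.17 and 10.01 in Scr and 11.35, 11.45 and 11.32 in shRunx2 cells. The lowest shRunx2 array lay well above the highest Scr array, and the log2 change was 1.20 ± 0.08 (2.3-fold, adjusted p = 0.000232). Olfr56/Ifi47, which joins an olfactory receptor gene with the Irg GTPase gene Ifi47, read 8.85, 8.85 and 8.77 and then 9.64, 9.82 and 9.71 (log2 change 0.90 ± 0.06, adjusted p = 0.000286). This probe set also counted on the list of olfactory receptors. There it was the only one of 151 to rise and Olfr100/Olfr102 the only one to fall, beside 1.28% and 1.7% of all probe sets. The fall of Olfr100/Olfr102 was lost in 11 of 16 alternatives.

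The guanylate-binding proteins, GTPases that attack membranes around pathogens, gave 2 shared probe sets with different histories. Gbp2/Gbp2b read 10.60, 10.46 and 10.50 in Scr and 11.59, 11.73 and 11.56 in shRunx2 cells, a log2 change of 1.11 ± 0.06 (2.15-fold, adjusted p = 5.12e-05). The probe set Gbp11/Gbp10/Gbp9/Gbp6/Gbp8/Gbp4 read 10.98, 10.84 and 10.81 in Scr and 11.63, 11.48 and 11.44 in shRunx2 cells, a smaller change of 0.64 ± 0.07 (1.56-fold, adjusted p = 0.00161), which was 0.58 and thus below 1.5-fold without shRunx2 replicate 1. Both probe sets separated the groups without overlap.

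Oas1a/Oas1g, enzymes that sense double-stranded RNA and make 2′-5′ oligoadenylates, read 8.80, 8.73 and 8.73 in Scr and 10.12, 10.27 and 10.03 in shRunx2 cells. No array of either group came near the other, with a log2 change of 1.39 ± 0.07 (2.61-fold, adjusted p = 6.5e-05). Isg15/Gm9706, named for the ubiquitin-like modifier Isg15, read 8.05, 8.07 and 8.11 and then 8.80, 8.76 and 8.83, a change of 0.72 ± 0.06 (1.65-fold, adjusted p = 0.000619). The pair Apol9a/Apol9b, apolipoprotein L genes of a mouse family, rose on both of its probe sets, by 1.03 ± 0.08 (2.04-fold, adjusted p = 0.000392) and 0.90 ± 0.08 (1.87-fold, adjusted p = 0.000922).

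Trim5/Trim12c/Trim12a and Trim5/Trim12c, relatives of a factor that restricts retroviruses, rose by less. Their log2 changes were 0.68 ± 0.11 (1.6-fold, adjusted p = 0.0124) and 0.61 ± 0.06 (1.52-fold, adjusted p = 0.00155). The first lost its call without Scr day 9 replicate 2 (adjusted p = 0.0596), without Scr day 9 replicate 3 (0.0517) and without shRunx2 replicate 1 (0.0596). The other stayed at an adjusted p under 0.05 but dropped to a log2 change of 0.58 without Scr day 9 replicate 2 or 3 or with arrays centred on their medians.

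Outside the interferon list, the pair Ly6c2/Ly6c1 showed the greatest rise of all shared probe sets. Ly6c proteins are small surface antigens held by a lipid anchor, best known as markers of monocytes and other blood cells. Its probe sets read 11.09, 10.92 and 10.88 in Scr against 12.67, 12.65 and 12.66 in shRunx2 cells, and 10.43, 10.35 and 10.31 against 11.85, 11.88 and 11.88. Both sets of groups were wide apart, with log2 changes of 1.70 ± 0.06 (3.24-fold, adjusted p = 1.42e-05) and 1.51 ± 0.04 (2.85-fold, adjusted p = 3.76e-06). The leukocyte markers listed above stayed within 7.67 to 7.72 on average in every array, and the log2 change of Ptprc, which encodes CD45, was -0.01 (adjusted p = 0.961).

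MHC class I genes present peptides on the cell surface. Of 8 shared MHC probe sets 3 rose, 0 fell and 5 did not pass (median log2 change 0.15), and of 29 MHC probe sets with 1 symbol 3 rose (median 0.04). At an unadjusted p under 0.05, 4 of the 8 were higher and 0 lower. Over all probe sets, 1.28% rose and 1.7% fell at an adjusted one. The probe set H2-K1/LOC547349/H2-D1, classical class I genes, read 10.94, 10.87 and 10.81 in Scr and 11.84, 11.87 and 11.93 in shRunx2 cells, without overlap (log2 change 1.00 ± 0.05, 2.01-fold, adjusted p = 7.55e-05). A probe set listing the same genes in another order rose by 0.80 ± 0.06 (1.74-fold, adjusted p = 0.000293). H2-T-ps/H2-T23, which includes the gene of the nonclassical molecule Qa-1, rose by 0.28 ± 0.04 (adjusted p = 0.0112), but not without Scr day 9 replicate 2 (0.0584). Shared probe sets of H2-Q1/H2-Bl, H2-Q6/H2-Q8, H2-DMb2/H2-DMb1, H2-T3/H2-T18 and H2-T9/H2-T22/H2-T10 did not pass, with log2 changes from -0.22 to 0.17. Psme2b/Psme2, a subunit of the proteasome activator that serves antigen processing, rose by 0.41 ± 0.08 (adjusted p = 0.028). It missed the threshold in 7 of 17 alternatives. These left out replicate 1, 2 or 3 of shRunx2 (adjusted p = 0.11, 0.0632 and 0.0929), replicate 2 or 3 of Scr day 9 (0.096 and 0.0951) and replicate 1 of Scr day 0 (0.0501), or fitted only the groups compared (0.0899).

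The Sp100 and Sp110 genes encode nuclear body proteins, and the mouse carries many repeated copies related to them. Gm15753/Sp110 read 9.15, 8.86 and 8.79 in Scr and 10.01, 10.14 and 10.02 in shRunx2 cells, without overlap (log2 change 1.12 ± 0.11, 2.18-fold, adjusted p = 0.00149), and LOC102638047/Gm15753/Sp110 rose by 0.78 ± 0.10 (adjusted p = 0.00607). Gm7592/LOC101055663/LOC671917/Gm7609/Sp100 rose by 1.10 ± 0.08 (2.14-fold, adjusted p = 0.000238). The listing Gm7592/LOC100041903/Gm2666/Gm7609/Csprs stood on 4 probe sets, all of which rose, by log2 changes of 1.33 ± 0.16, 1.02 ± 0.07, 0.89 ± 0.14 and 0.51 ± 0.06. The changes agreed in sign and differed in size, and the one of 0.89 lost its call without any one of Scr day 9 replicates 2 and 3 (adjusted p = 0.0683 and 0.0596) and shRunx2 replicates 2 and 3 (0.0556 and 0.0587). The last of the 23 was 9930111J21Rik1/9930111J21Rik2, with 8.24, 8.13 and 8.29 in Scr and 9.04, 9.24 and 9.20 in shRunx2 cells (log2 change 0.94 ± 0.08, adjusted p = 0.000667).

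Where a gene listed by one of the 23 called probe sets also had a probe set of its own, the sizes of the changes were set side by side. Such a probe set existed for 9 of the 41 symbols, and all 9 log2 changes were above 0. Those of Sp100 (1.30, adjusted p = 0.000286) and Trim12a (0.67, adjusted p = 0.00812) rose. Gbp2b read 7.88, 7.93 and 7.96 in Scr and 8.18, 7.99 and 7.99 in shRunx2 cells on its own probe set, a change of 0.13 (adjusted p = 0.357) beside 1.11 on Gbp2/Gbp2b. Oas1a had a change of 0.33 (adjusted p = 0.0559) beside 1.39 on Oas1a/Oas1g. Of the genes of the large Gbp probe set, the own changes were 0.55 for Gbp4 (adjusted p = 0.138), 0.47 for Gbp9 (adjusted p = 0.0515), 0.47 for Gbp11 (adjusted p = 0.0956) and 0.09 for Gbp8 (adjusted p = 0.576), beside 0.64 on the shared one. Trim12c had a change of 0.60 (adjusted p = 0.185). Whether a shared probe set and that of a single gene differed in change was not tested.

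A smaller group of shared probe sets fell with shRunx2, all by less than 1.5-fold. Gm5424/Ass1, which includes the gene of argininosuccinate synthase, an enzyme of arginine synthesis, read 10.54, 10.48 and 10.45 in Scr and 10.15, 10.16 and 10.16 in shRunx2 cells (log2 change -0.33 ± 0.04, adjusted p = 0.00331). Ahcy/Gm4737, which includes the enzyme that clears S-adenosylhomocysteine, read 11.29 on all 3 Scr arrays and 10.92, 10.98 and 10.97 in shRunx2 cells (log2 change -0.33 ± 0.05, adjusted p = 0.00629). Neither pair of groups overlapped. The other probe set of Ahcy/Gm4737 had a larger and noisier change of -0.58 ± 0.13 that did not pass (adjusted p = 0.0562).

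The rest of the 12 that fell included 2 of 4 probe sets of Gm10052/Hnrnpa1l2-ps2/Gm5643/Hnrnpa1 (-0.33 and -0.31) and 1 of 6 of Gm6793/Hnrnpa3 (-0.45), named for RNA-binding proteins. Both probe sets of Gm8234/Sms fell (-0.33 and -0.31), where Sms encodes spermine synthase. The others were 1 of 13 probe sets of Gm6133/Rpl17/Hk1 (-0.45), 1 of 2 of Gm7367/Ubald2 (-0.27), 1 of 3 of Gm12620/Pabpc4 (-0.16), Olfr100/Olfr102 (-0.37) and Mir675/Supt6 (-0.32). All of these but the Hnrnpa1 probe set of -0.31 missed the threshold in some alternatives. Those were 3 for the other Hnrnpa1 probe set, 8 for Gm6793/Hnrnpa3, 8 and 7 for Gm8234/Sms and 9 for Gm6133/Rpl17/Hk1. They were 6 for Gm7367/Ubald2, 10 for Gm12620/Pabpc4, 11 for Olfr100/Olfr102 and 7 for Mir675/Supt6. Among the smaller rises were Hspa1a/Hspa1b (0.25), the inducible heat shock proteins, Gm28043/Cmtr1 (0.35), named for an enzyme of the RNA cap, and Ugt1a1/Ugt1a6b/Ugt1a9/Ugt1a5/Ugt1a7c/Ugt1a10/Ugt1a6a/Ugt1a2 (0.29), glucuronosyltransferases that share their last exons. Hspa1a/Hspa1b missed the threshold in 7 alternatives, which left out replicate 1, 2 or 3 of Scr day 9 (adjusted p = 0.0589, 0.0635 and 0.0524) and replicate 1 or 2 of shRunx2 (0.0843 and 0.073), used the replicate block (0.0545) or fitted only the groups compared (0.0743). Gm28043/Cmtr1 missed it in 4, which left out replicate 2 or 3 of Scr day 9 (0.0557 and 0.0525) and replicate 3 of shRunx2 (0.0508) or fitted only the groups compared (0.0504). Over the 49 shared probe sets that passed in shRunx2 cells, 30 passed in every alternative that tested them and 19 did not. The count of falls was less stable than that of rises: 5 with a replicate block and from 4 to 11 when arrays were left out in turn, with 4 without Scr day 9 replicate 2.

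From day 0 to day 9 in Scr cells, shared probe sets moved in both directions. Of the 1321, 32 were called higher at day 9 (2.42%, beside 2.85% of all probe sets) and 15 lower (1.14%, beside 1.61%). Without the fold threshold 163 rose (12.3%, beside 11.1%) and 86 fell (6.51%, beside 10.8%), a split that became 124 higher and 131 lower when arrays were centred on their medians. The 32 called higher became 21 without Scr day 9 replicate 1. The median log2 change was 0.01 over the shared probe sets and -0.01 over all. The groups did not overlap in any of the 47 called.

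Gbp11/Gbp10/Gbp9/Gbp6/Gbp8/Gbp4 rose most of all shared probe sets during differentiation. It read 8.16, 8.20 and 8.07 at day 0 and 10.98, 10.84 and 10.81 at day 9, a log2 change of 2.73 ± 0.07 (6.65-fold, adjusted p = 7.13e-08). The own probe sets of Gbp4, Gbp8 and Gbp9 rose by 3.12, 2.72 and 2.05, and that of Gbp11 by 0.98. On the interferon-inducible list, 8 of 14 shared probe sets rose, 3 fell and 3 did not pass from day 0 to day 9 (median log2 change 0.33). Of all probe sets 11.1% rose and 10.8% fell. Gbp2/Gbp2b fell from 10.80, 10.76 and 10.80 to 10.60, 10.46 and 10.50 (-0.26 ± 0.06, adjusted p = 0.00915), and both Tgtp2/Tgtp1 probe sets fell, by 0.69 and 0.70 on the log2 scale. The guanylate-binding and Irg families thus each held probe sets that rose and ones that fell.

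Among the enzymes that rose, Naa80/Hyal1 read 8.06, 8.13 and 8.13 at day 0 and 9.37, 9.32 and 9.13 at day 9 (log2 change 1.17 ± 0.07, 2.24-fold, adjusted p = 6.44e-06). Naa80 acetylates the end of actin and Hyal1 degrades hyaluronan. The other probe set of Naa80/Hyal1 rose by only 0.24 (adjusted p = 0.00965). Gm5424/Ass1 rose on both of its probe sets, from 9.46, 9.36 and 9.40 to 10.54, 10.48 and 10.45 on the more precise one (1.08 ± 0.04, 2.12-fold, adjusted p = 5.37e-07) and by 1.07 ± 0.16 on the other. Gm8615/Gnpda1, where Gnpda1 encodes glucosamine-6-phosphate deaminase, rose from 10.13, 10.16 and 10.10 to 11.10, 10.93 and 10.96 (0.86 ± 0.05, adjusted p = 1.15e-05) and by 0.37 on its other probe set (adjusted p = 0.0165). In none of the probe sets with printed arrays did a day 0 array reach a day 9 array. C1rb/C1ra, proteases that start the classical complement pathway, rose by 0.62 ± 0.05 (1.53-fold, adjusted p = 6.11e-05), or by 0.57 and thus below 1.5-fold without Scr day 9 replicate 1, and Gstp1/Gstp2, glutathione transferases, by 0.31 and 0.27 on their 2 probe sets.

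The probe sets that fell most, after Ly6c2/Ly6c1, were Prl2c4/Prl2c3/Prl2c2 and Tmem254b/Tmem254c/Tmem254a. The Prl2c genes encode proliferins, prolactin-related secreted proteins first found in dividing fibroblasts, and their probe set fell from 5.67, 5.40 and 5.44 to 4.28, 4.33 and 4.14 (log2 change -1.25 ± 0.08, 2.39-fold lower, adjusted p = 1.69e-05). All these values lay well below the array medians of 8.416 to 8.51, and without detection values the size of this fall is uncertain. The Tmem254 probe set fell from 11.31, 11.32 and 11.25 to 10.32, 10.34 and 10.31 (-0.97 ± 0.05, adjusted p = 2.08e-06). Pakap/Palm2, membrane-associated proteins, fell by 0.91 on the log2 scale, Pnp2/Pnp, purine nucleoside phosphorylases, by 0.66, and Scn3a/Scn1a, voltage-gated sodium channels, by 0.64. Of this last pair Scn3a fell by 0.64 on its own probe set (adjusted p = 0.000216), and the own probe set of Scn1a did not pass (adjusted p = 0.993). Gm12620/Pabpc4 stood on 3 probe sets with log2 changes from -0.77 to -0.04, of which 2 passed. Gm4983/2410018L13Rik fell by 0.69 and Gm6815/4930529C04Rik/Zbed4 by 0.72, the last not without Scr day 0 replicate 1 (adjusted p = 0.0532) or Scr day 9 replicate 2 (0.052) or 3 (0.0516). Gm12070/Gm5523/3000002C10Rik/Gapdh, which includes a gene often used as a reference, stood on 4 probe sets with log2 changes from -0.62 to -0.03, of which 2 passed. The one that fell most went from 12.63, 12.58 and 12.77 to 12.08, 11.93 and 12.10 (-0.62 ± 0.07, adjusted p = 0.000287), and dropped below 1.5-fold without Scr day 0 replicate 3 or Scr day 9 replicate 2 (-0.57 in both). A longer listing that ends in Gapdh, Gm12070/Gm6981/Gm6498/Gm5523/Gm5177/3000002C10Rik/Gm5069/Gapdh, stood on 4 probe sets with changes from -0.10 to 0.37, and none passed.

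Zinc finger proteins, mostly repressors of the KRAB class that sit in clusters of near copies, had 22 of 39 shared probe sets rise, 3 fall and 14 not pass (median log2 change 0.30), beside 94 risen and 28 fallen of 385 with 1 symbol (median 0.05). Of all probe sets 11.1% rose and 10.8% fell from day 0 to day 9. Gm38396/Zfp960/BC002059/Zfp97 rose from 10.23, 10.20 and 10.11 to 11.11, 10.90 and 10.96 (0.81 ± 0.09, adjusted p = 0.000299), Zfp950/Arid4b by 0.63 ± 0.05 and EU599041/Gm2381/Zfp975/Zfp976 by 0.66 ± 0.09, or by 0.56 without Scr day 0 replicate 3. The count was 20 with arrays centred on their medians. The 3 that fell were Zscan4f/Zscan4b/Zscan4d/Zscan4a/Zscan4c (-0.52), genes active in early embryos, and both probe sets of Zfp646/Tubb4b (-0.43 and -0.48). The Zfp646/Tubb4b probe sets also counted on the cytoskeleton list, where they and Tubb2a-ps2/Tubb2b/Tubb2a (-0.47) were the 3 of 12 that fell, beside 5 with arrays centred and 6 normalized again. Zinc finger probe sets did not pass in shRunx2 cells, where limma gave 0 of 39 at an adjusted p under 0.05 and 2 higher and 4 lower at an unadjusted one. In that comparison 1.28% of all probe sets rose and 1.7% fell, so 0 of 39 lay near the share.

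Histone genes are copied in clusters and expressed mainly while cells replicate DNA. Of 22 shared histone probe sets 5 fell and 0 rose from day 0 to day 9 (median log2 change -0.14), beside 13 fallen and 1 risen of 30 with 1 symbol (median -0.16). Of all probe sets 10.8% fell and 11.1% rose. At an unadjusted p under 0.05, 13 of the 22 were lower and 0 higher, and 11 fell at an adjusted p when arrays were centred on their medians or normalized again. The probe set H4bc24/H2bc23/H2bc22/H2bc15/H2bc14/H2bc13/H2bc12/H2bc11/H2bc9/H2bc8/H2bc7/H2bc6/H2bc3/H2bc1/H2bc4, core histone copies, fell from 12.97, 13.02 and 12.97 to 12.70, 12.39 and 12.50 (-0.46 ± 0.08, adjusted p = 0.00349). H2bc6/H1f4 fell by 0.27 on the log2 scale. H4c17/H4c11 fell by 0.43, and H3c1/H3c13/H3c11/H3c10/H3c6/H3c2/H3c4/H3c3/H3c7/H3c8/H3c15/H3c14 by 0.18 and 0.17 on a pair of probe sets. Each of these last 3 missed the threshold under 5 alternatives. Among them, leaving out Scr day 9 replicate 2 gave adjusted p = 0.0894, 0.0931 and 0.0824 and leaving out Scr day 9 replicate 3 gave 0.101, 0.0885 and 0.0607. Without Scr day 0 replicate 2 the values were 0.0975, 0.0797 and 0.0753. Single losses came without Scr day 0 replicate 1 for H4c17/H4c11 (0.107), without Scr day 0 replicate 3 for the H3c probe sets (0.0838 and 0.0808), without Scr day 9 replicate 1 for the second of them (0.0568), and with the replicate block for H4c17/H4c11 (0.0707) and the first H3c probe set (0.0573).

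Ribosomal proteins, whose processed pseudogenes are scattered over the genome, had 38 of 209 shared probe sets rise and 0 fall (median log2 change 0.13), beside 50 risen and 2 fallen of 198 with 1 symbol (median 0.15). The other 171 shared probe sets did not pass, and 11.1% of all probe sets rose. The risen count was 19 with arrays centred on their medians and 42 after normalizing again. At an unadjusted p under 0.05, 73 were higher and 4 lower. Examples were Mir682/Rpl37a (0.31 ± 0.04), Gm6525/Rpl36a (0.32 ± 0.05) and Nol11/Rps12 (0.34 ± 0.05), the last passing on 1 of its 3 probe sets. In shRunx2 cells 1 ribosomal probe set fell, Gm6133/Rpl17/Hk1, and 0 rose in limma, with 6 higher and 23 lower at an unadjusted p under 0.05. Over all probe sets, 1.7% fell and 1.28% rose in shRunx2 cells.

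Small RNAs, chosen by symbol alone, gave 63 shared probe sets, of which 18 rose, 1 fell and 44 did not pass from day 0 to day 9 (median log2 change 0.07), beside 61 risen and 6 fallen of 366 with 1 symbol (median 0.02). Of all probe sets 11.1% rose and 10.8% fell. The risen count was 14 with arrays centred on their medians and 15 after normalizing again. These arrays were hybridized with cDNA of total RNA, so a value here cannot be given to a mature small RNA. It cannot be separated from that of precursors and any other listed transcripts. Snord68/Rpl13 read 8.50, 8.43 and 8.50 at day 0 and 10.13, 9.15 and 9.41 at day 9 (1.09 ± 0.33, adjusted p = 0.0487). Its day 9 arrays were far apart, and the call was lost in 10 of 17 alternatives, with a change of 0.80 (adjusted p = 0.143) without Scr day 9 replicate 1. Snora28/Eif5 rose by 0.82 ± 0.20 (adjusted p = 0.0193), but not without Scr day 0 replicate 2 (0.066) or 3 (0.0586) or with only the groups compared in the fit (0.0502), and by 0.56 without Scr day 9 replicate 1. On its own probe set Eif5 changed by 0.02 (adjusted p = 0.79). The own probe sets of Rpl13 changed by -0.19 to 0.65, of which only that of 0.65 passed (adjusted p = 0.0453). Whether these differed from the shared probe sets was not tested. Mir675/Supt6 rose from 8.32, 8.43 and 8.44 to 8.95, 8.78 and 8.87 (0.47 ± 0.05, adjusted p = 0.000396) and fell in shRunx2 cells, as given above.

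Probe sets of the miR-29 precursors were among those that rose. Mature miR-29 targets collagen and other matrix transcripts and is known in osteoblast differentiation, and its 2 members listed here share their seed, shown in capitals (bases 2 to 8) in the RefSeq sequences of the 3p arms on the plus strand of chromosome 1 (GRCm38.p6).
Mir29b-2 (mmu-miR-29b-3p): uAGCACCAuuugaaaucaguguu
Mir29c (mmu-miR-29c-3p): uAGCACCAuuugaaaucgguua
Mir29c/A330023F24Rik rose from 6.24, 6.42 and 6.29 to 6.91, 6.75 and 6.66 (log2 change 0.46 ± 0.08, adjusted p = 0.00442) and Mir29b-2/A330023F24Rik from 5.93, 5.92 and 5.99 to 6.37, 6.10 and 6.17 (0.27 ± 0.07, adjusted p = 0.0201). In shRunx2 cells they read 6.58, 6.79 and 6.61, and 6.13, 6.11 and 6.06, and neither passed against Scr day 9. The day 9 arrays lay above the day 0 arrays in both, and the second was lost without Scr day 0 replicate 1 or 2 (adjusted p = 0.0626 and 0.066) and with only the groups compared in the fit (0.0545). Both list the noncoding RNA A330023F24Rik, so they are not separate evidence of either microRNA. All values of both probe sets lay well below the array medians of 8.416 to 8.51. Without detection values the sizes of these rises are uncertain.

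Families of tissues far from bone served as a background, beside all probe sets, of which 1.28% rose and 1.7% fell in shRunx2 cells. Of 42 immunoglobulin and T cell receptor probe sets, 14 of leukocyte receptors, 37 of keratinocyte and glandular genes, 120 of germ-cell multicopy genes, 4 of haemoglobin and 7 of serpins and related inhibitors, 0 rose or fell in shRunx2 cells in limma, with 7 higher and 5 lower at an unadjusted p under 0.05. From day 0 to day 9, 3 of the immunoglobulin probe sets rose, 1 leukocyte receptor probe set, 4 germ-cell probe sets and the proliferin probe set fell, and 0 of haemoglobin or serpins passed in limma at an adjusted p, with 1 lower in each at an unadjusted p under 0.05 and 1 lower in each at an adjusted p when arrays were centred on their medians. The same centring left 2 immunoglobulin probe sets higher and 1 lower. Among 151 olfactory, vomeronasal and taste receptor probe sets 8 rose and 0 fell. Beside these counts from day 0 to day 9, 11.1% of all probe sets rose and 10.8% fell. The leading ones listed vomeronasal receptors of the Vmn2r group, such as Vmn2r36/Vmn2r34/Vmn2r48/Vmn2r35/Vmn2r33/Vmn2r43/Vmn2r29/Vmn2r32/Vmn2r42/Vmn2r30/Vmn2r37, which went from 9.10, 9.01 and 8.94 to 9.51, 9.42 and 9.42 (0.43 ± 0.05, adjusted p = 0.000515). Vmn2r35/Vmn2r33/Vmn2r43/Vmn2r29 rose by 0.83 ± 0.20 (adjusted p = 0.0166), but not without Scr day 0 replicate 2 (0.0568) or Scr day 9 replicate 3 (0.0509). Of 1248 probe sets of these receptors with 1 symbol, 4 rose and 9 fell.

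The values of the 23 probe sets called higher in shRunx2 cells were set beside their own change during differentiation. Both comparisons use the Scr day 9 arrays, so the changes are not independent of each other. Among the 23, 13 were called in both, of which 9 were higher at day 9 and higher again in shRunx2 cells, and 4 (the Ly6c2/Ly6c1 and Tgtp2/Tgtp1 probe sets) were lower at day 9 and higher in shRunx2 cells. Ly6c2/Ly6c1 started at 12.98, 13.13 and 13.12 at day 0, was 11.09, 10.92 and 10.88 at day 9 and 12.67, 12.65 and 12.66 in shRunx2 cells. The shRunx2 arrays thus lay between the other groups, below every day 0 array. Another pattern was that of H2-K1/LOC547349/H2-D1, with 10.02, 9.85 and 9.92 at day 0, 10.94, 10.87 and 10.81 in Scr at day 9 and 11.84, 11.87 and 11.93 in shRunx2 cells. Each of its groups lay above the one before. Gm7592/LOC101055663/LOC671917/Gm7609/Sp100, 9930111J21Rik1/9930111J21Rik2 and Isg15/Gm9706 did not pass from day 0 to day 9, with log2 changes of 0.15, -0.17 and 0.12.

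Because many listings stood on several probe sets, the array also showed how alike they behaved. Of 788 distinct listings 238 stood on more than 1 probe set, up to 19, which took in 771 of the 1321 members. The median spread of log2 changes within such a listing, highest minus lowest, was 0.15 for shRunx2 and 0.18 for differentiation. In shRunx2 cells 13 of these listings had a probe set that passed, and in 5 of them every probe set passed: Apol9a/Apol9b, Ly6c2/Ly6c1, Tgtp2/Tgtp1, Gm8234/Sms and Gm7592/LOC100041903/Gm2666/Gm7609/Csprs. During differentiation 82 listings had one that passed, and in 23 all did. No listing had probe sets that passed in opposite directions in either comparison. The widest spread in shRunx2 cells, 1.36, was that of Gm11238/Gm13871/Gm11758/Gm11487/Gm428, of which no probe set passed.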

How the data were processed

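RNA of 9 cultures was measured on 9 arrays. The deposited values are log2 expression values that the authors made with RMA (background correction, quantile normalization and median polish). The submitters' processing notes name RMA and limma, and a filter that the methods mention without detail was not applied here. Here limma 3.58.1 in R 4.3.3 fitted group means to all 9 arrays and all 34760 probe sets, with Benjamini-Hochberg adjustment over all of them, a threshold of 0.05 and 1.5-fold for calls. The fit was tested on simulated data. Values are log2 changes ± SE of the fit. Symbols came from the platform annotation, and 2003 of the 2028 gene identifiers matched a RefSeq table of GRCm38.p6, with 0 differing symbols. Promoters were aligned with Biopython 1.88. The members and lists were chosen with earlier results of these data known, and so were the motifs. The rule for names took, for each comparison, the 12 strongest rises and 12 strongest falls among called probe sets with groups apart, plus at most 4 per list, ranked by adjusted p. It picked 125 probe sets. The text names all of the strongest rises and falls and only some of the list picks, with the other list members given as counts. Probe sets named beyond this rule, 5 of the 23 called higher in shRunx2 cells among them (9930111J21Rik1/9930111J21Rik2, Isg15/Gm9706, LOC102638047/Gm15753/Sp110 and 1 each of Apol9a/Apol9b and the Csprs listing), were chosen after their values were seen. The 17 alternatives changed the probe sets tested, the filter, scaling, normalization, variance model, array weights, samples and replicate block, or left out each array in turn.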

Additional observations from a re-analysis of the deposited data

How the results depend on the processing

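Of the 23 shared probe sets called higher in shRunx2 cells, 19 were called under every alternative that tested them, and the number called ran from 20 to 25, with 0 called lower throughout. Of the 47 called between day 0 and day 9, 29 were called under every such alternative. The number higher in that comparison ran from 21 (without Scr day 9 replicate 1) to 38 when arrays were left out in turn. Shared probe sets that fell in shRunx2 cells at any fold numbered 12, and became 20 when only probe sets with a symbol were tested, 19 when only those above the median level were, and 5 with the replicate block. Leaving out arrays gave 4 to 11. The number that fell from day 0 to day 9 went from 86 to 131 with arrays centred on their medians. The change of Gm38525/Trim30b turned negative with arrays centred (-0.0062), normalized again (-0.014), weighted (-0.00141) or without Scr day 9 replicate 1 (-0.019, up to 0.044 without Scr day 9 replicate 3). The causes were not tested. Fewer probe sets were adjusted over where only some were tested. Correlations between same-numbered arrays of different groups ran from -0.060 to 0.22, and between differently numbered ones from -0.20 to 0.085. The highest were thus between same-numbered arrays, so the correlations do not settle whether the numbers pair the arrays. The labels name biological replicates and state no pairing. The main fit took the arrays as unpaired, and the replicate block is given as an alternative. The block changed neither the 32 called higher nor, by over 1.5 times, the other called counts (24 higher in shRunx2 cells, 14 lower at day 9). With 3 arrays a group and no detection values, small changes of dim probe sets are the least certain.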
